A study of Sus scrofa with 6 samples.

Results

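Carriers of the SLC25 family were examined in longissimus dorsi, a back muscle, in 3 libraries from Wannanhua and 3 from Yorkshire pigs. The members are the table rows whose Ensembl identifier maps to a symbol starting with SLC25A, leaving out SLC25A20, the carnitine carrier. They number 29 of 17627 genes in the table, of which 10384 have a symbol. A further 12 SLC25A symbols of the name table, among them the ADP/ATP carrier SLC25A6 and the oxoglutarate carrier SLC25A11, were not analysed here. Wannanhua is a local Chinese breed and Yorkshire a lean commercial breed; all libraries are labelled as 5 months of age, while the design text speaks of piglets. No treatment is labelled, and sex, feed and farm are not stated. Libraries of a breed carry separate replicate numbers but are not stated to be separate animals, so the p-values measure the spread between libraries, which may be technical. Values are FPKM, fragments per kilobase of transcript scaled by mapped fragments, so levels of different carriers can be set side by side.

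SLC25 proteins are small membrane proteins, made in the cytosol, that move metabolites through the inner mitochondrial membrane, which is otherwise nearly closed to charged molecules. In muscle, the ADP/ATP carrier brings ADP in and ATP out, the phosphate carrier supplies phosphate for ATP synthesis, and the aspartate/glutamate carriers pass the electrons of cytosolic NADH inward as a part of the malate-aspartate shuttle. Other members carry cofactors, amino acids, citrate, iron or glutathione, and a few sit in the outer membrane or in peroxisomes.

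Of the 29 carriers, 26 had at least 1 FPKM in 3 or more libraries and were tested with the rest of the table by limma on log2(FPKM + 1). Past an adjusted p of 0.05 stood 3 carriers, all of low to moderate level. SLC25A42, a coenzyme A carrier, was higher in Wannanhua. SLC25A17, the peroxisomal carrier of cofactors and nucleotides, and SLC25A14, an uncoupling-protein-like carrier, were lower. The most abundant carriers, SLC25A4 and SLC25A3, did not pass. The 3 calls are 11.5% of the tested carriers, against 3.05% of the 11791 genes tested; over all genes 1.76% were called higher and 1.29% lower in Wannanhua.

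Of the 26, 15 had a positive and 11 a negative log2 fold change, Wannanhua minus Yorkshire. Their median was 0.17, beside 0.12 over all genes tested, and their median size was 0.32, beside 0.29. Quantile normalization moved the median of all genes from 0.12 to 0.00 and left the direction of all 26 carriers as it was. Higher genes were 57.8% of all calls, or 40.8% once quantile normalized. The breeds' libraries did not overlap for 7 carriers, 5 higher and 2 lower in Wannanhua. That is 26.9% of the tested carriers, beside 29.9% of all genes. An unadjusted p under 0.05 was reached by 7 carriers, 26.9%, beside 22.1% of all genes. A log2 fold change of at least 1 in size was seen in 4 carriers, 15.4%, beside 6.98% of all genes.

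**Figure D1:**
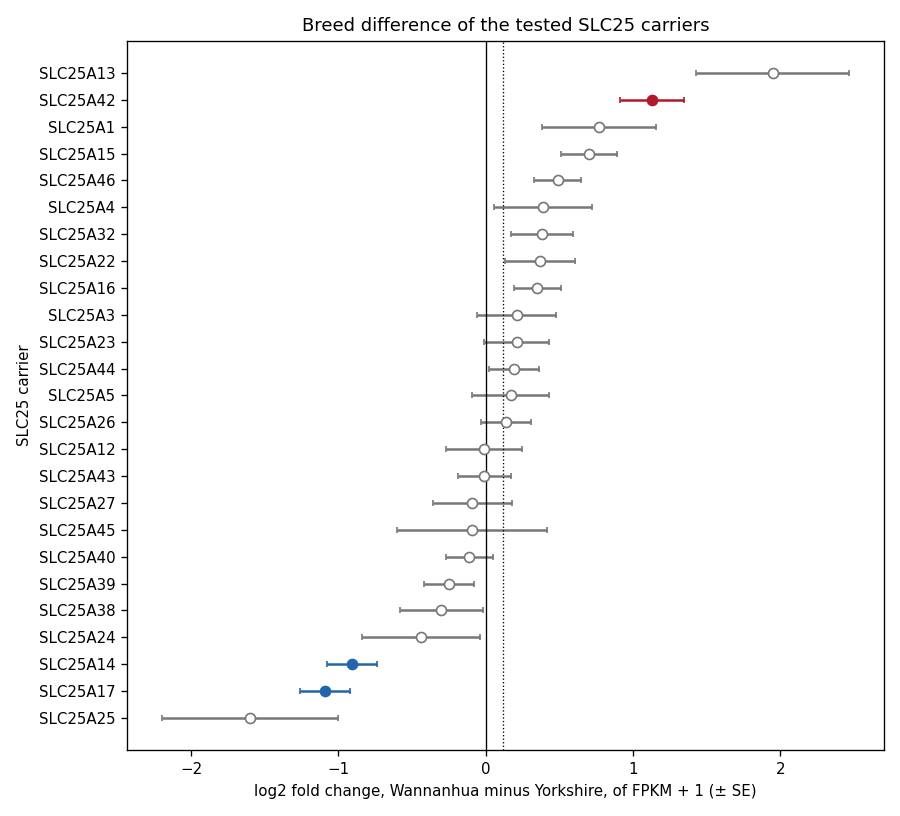
Log2 fold change of FPKM + 1, Wannanhua minus Yorkshire, on the horizontal axis for the tested carriers named in the text; bars are the limma SE, filled points passed an adjusted p of 0.05, and the dotted line is the median of all genes at 0.12. SLC25A42 is the filled point on the right at 1.13, and SLC25A14 and SLC25A17 are the filled points on the left at -0.91 and -1.09, while SLC25A13 and SLC25A25 lie farthest out with wide bars.

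The breeds overlapped in library size. Each library held an estimated 16385602 to 21056702 reads, from the value of 1 read in the scaled counts. The tissue label was checked against its markers: the 4 usable of 10 listed, DES, NEB, MYOT and TCAP, proteins of the sarcomere and its lattice, stood between 617 and 6344 FPKM in every library. All 4 had higher means in Wannanhua, at a median log2 fold change of 0.99, with 3 of them not overlapping between breeds and 0 past the limma threshold (3 at an unadjusted p under 0.05). The 4 usable slow-fibre markers (MYL3, TNNC1, TNNI1 and TNNT1, of 8 listed) had a mean log2(FPKM + 1) of 13.15, 13.15 and 11.20 in Wannanhua 1, 2 and 3. In Yorkshire 1, 2 and 3 it was 11.92, 10.26 and 11.17. The 4 usable fast-fibre markers (PVALB, MYBPC2, TNNC2 and ATP2A1, of 8 listed) had means of 8.26, 8.70 and 10.64 in the Wannanhua libraries, against 10.83, 10.77 and 11.11 in the Yorkshire ones. Wannanhua 3 thus lay beside the Yorkshire libraries on both lists. No usable fibre marker was at 0 in any library, but PVALB in Wannanhua 1 was near it. It stood there at 0.106 FPKM on an estimated 1 read, which lowers the fast-fibre mean of that library. Each of the 4 fast-fibre markers was lower in Wannanhua 1 and 2 than in every other library. In bulk tissue a smaller share of fibres of a type and less RNA per fibre cannot be told apart.

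The abundant carriers of ATP exchange come first. SLC25A4 (ENSSSCG00000015790), the ADP/ATP carrier of heart and muscle, stood at 1636, 1622 and 1325 FPKM in Wannanhua 1, 2 and 3 and at 1893, 833 and 993 FPKM in Yorkshire 1, 2 and 3. Yorkshire 1 was the highest library of all and Yorkshire 2 the lowest, so the breeds overlapped. The means were 1527 ± 175 and 1240 ± 571 FPKM (SD, n = 3), with a log2 fold change of 0.39 ± 0.33 (SE, limma; adjusted p = 0.521). It was 0.74 without Yorkshire 1 and 0.15 without Yorkshire 2 and passed in neither case (limma adjusted p = 0.122 and 0.833). Among all genes of a library, ordered by FPKM, SLC25A4 took ranks between 54 and 112. SLC25A5, the ADP/ATP carrier of dividing and other non-muscle cells, stood at 7.68, 11.2 and 5.71 FPKM in Wannanhua and at 6.34, 5.91 and 8.77 in Yorkshire. Its breeds overlapped too (limma log2 fold change 0.17 ± 0.26 SE with adjusted p = 0.735). The ADP/ATP carriers are close in sequence, and no source used here says how reads were shared between them.

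SLC25A3 (ENSSSCG00000000886), the phosphate carrier, stood at 673, 782 and 649 FPKM in Wannanhua 1, 2 and 3 and at 860, 438 and 580 in Yorkshire 1, 2 and 3. Like SLC25A4 it was highest in Yorkshire 1 and lowest in Yorkshire 2, and it did not pass (limma log2 fold change 0.21 ± 0.27 SE with adjusted p = 0.683). Its log2 fold change was 0.47 without Yorkshire 1 and -0.01 without Yorkshire 2. SLC25A4 was above SLC25A3 in every library, by 1.71 to 2.43 times. Together they held 82.4% to 89.5% of the summed FPKM of the 29 carriers, a sum that ran from 2276 to 2697 FPKM in Wannanhua and from 1542 to 3088 in Yorkshire. The other 27 carriers together came to 270 to 302 FPKM in Wannanhua and 272 to 335 in Yorkshire.

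Yorkshire 2 was also the lowest library in the lists of ATP synthase and of mitochondrial content. By mean log2(FPKM + 1) it was lowest too in the import and shuttle enzyme lists, but not in 3 others. Other inner-membrane transporters were lowest in Yorkshire 1. Outer-membrane channels and family members under other symbols were lowest in Yorkshire 3. The list of ATP synthase, the enzyme that SLC25A4 and SLC25A3 serve, had 6 usable genes of 32 listed symbols, counting its inhibitor. Some of those symbols are synonyms. Mean log2(FPKM + 1) values of the 6 genes were 9.11, 9.06 and 8.32 in Wannanhua 1, 2 and 3. In Yorkshire 1, 2 and 3 they were 9.23, 7.95 and 8.52. All 6 lay above 0, at a median log2 fold change of 0.29, and 0 passed in limma or had an unadjusted p under 0.05. The 2 most abundant, ATP5F1A and ATP5PO, had log2 fold changes of 0.24 ± 0.38 and 0.15 ± 0.31 (SE, limma; adjusted p = 0.745 and 0.811). The mitochondrial content list, with COX5A and COX4I1 its most abundant members, gave 8.19, 8.05 and 7.61 for Wannanhua 1, 2 and 3 against 7.98, 7.17 and 7.54 for Yorkshire 1, 2 and 3, and a median log2 fold change of 0.34 for its 6 genes. None of those 6 passed in limma, and 1 had an unadjusted p under 0.05. Whether the levels of the abundant carriers follow mitochondrial content was not tested.

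**Figure D2:**
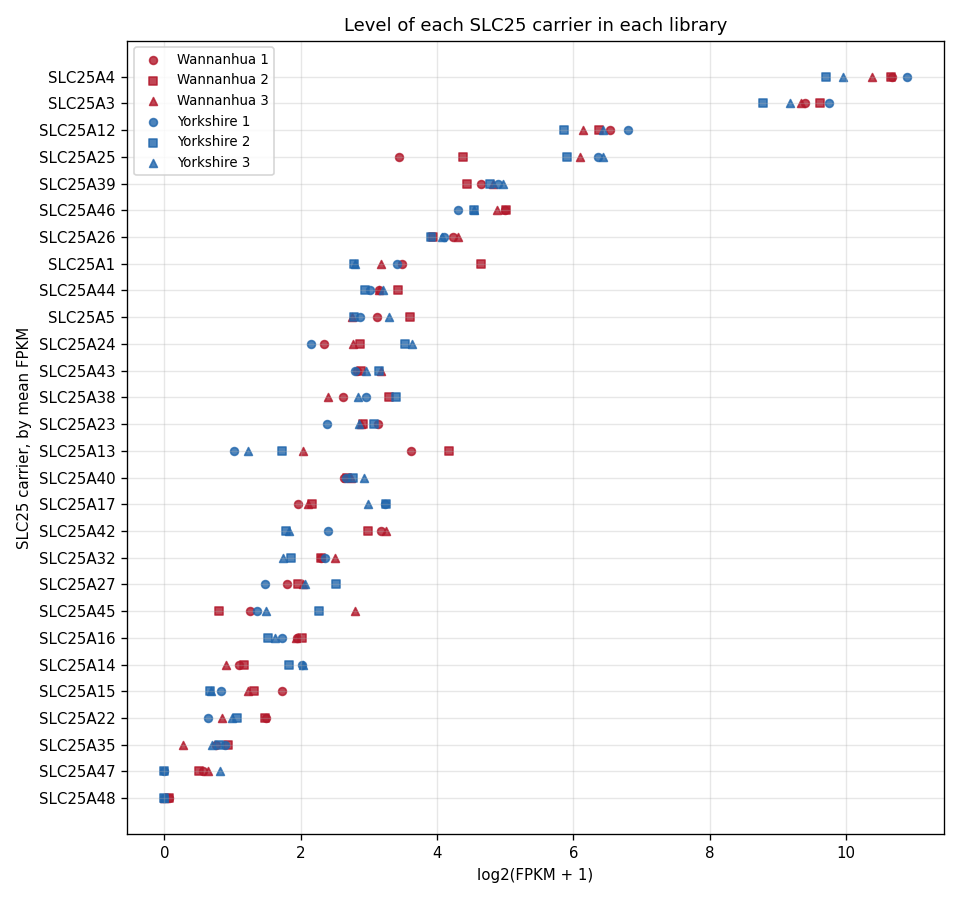
Level of each carrier named in the text as log2(FPKM + 1) on the horizontal axis, ordered by mean FPKM, with a point for every library (red Wannanhua, blue Yorkshire; the shape is the replicate number). SLC25A4 and SLC25A3 stand above all others. The colours separate for 7 carriers, the called SLC25A42, SLC25A17 and SLC25A14 and the uncalled SLC25A13, SLC25A15, SLC25A16 and SLC25A46.

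The aspartate/glutamate carriers differed from each other. SLC25A12, known as aralar and the main form in muscle, stood at 91.7, 82.0 and 69.5 FPKM in Wannanhua 1, 2 and 3 and at 110, 56.9 and 85.4 in Yorkshire 1, 2 and 3. The breeds overlapped widely (limma log2 fold change -0.01 ± 0.26 SE with adjusted p = 0.987). SLC25A13 (ENSSSCG00000015336), known as citrin and the main form in liver, stood at 11.3, 17.0 and 3.08 FPKM in Wannanhua 1, 2 and 3 and at 1.03, 2.32 and 1.33 in Yorkshire 1, 2 and 3. All Wannanhua libraries were above all Yorkshire ones, but Wannanhua 3 lay nearer to Yorkshire 2 than to the other Wannanhua libraries. The means were 10.4 ± 6.97 and 1.56 ± 0.675 FPKM (SD, n = 3), a ratio of 6.68. The log2 fold change of 1.95 ± 0.52 (SE) did not pass (limma adjusted p = 0.0884). Without Wannanhua 3 it was 2.57 and passed (limma adjusted p = 0.00977, in a range of 0.00977 to 0.247 over 13 alternatives). Wannanhua 1 and 2 are also the libraries with the highest slow-fibre and lowest fast-fibre means. The other libraries did not keep this order. Yorkshire 1 had the next highest slow-fibre mean, 11.92, and the lowest SLC25A13, while Yorkshire 2 had the lowest slow-fibre mean, 10.26, and the highest SLC25A13 of Yorkshire. The part of fibre type in the SLC25A13 difference was not tested.

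SLC25A12 held 89.0%, 82.9% and 95.8% of the summed SLC25A12 and SLC25A13 FPKM in Wannanhua 1, 2 and 3. Its share in Yorkshire 1, 2 and 3 was 99.1%, 96.1% and 98.5%. The breeds did not overlap, and the means differed by -8.66 percentage points, Wannanhua minus Yorkshire, or by -5.48 without Wannanhua 2. The exact two-sided permutation test gave p = 0.1, the smallest that 3 against 3 libraries allow, and 0.4 after adjustment over the 4 shares computed. In the RefSeq annotation of assembly Sscrofa11.1, which is not the build of the files, SLC25A13 follows PDK4 and DYNC1I1. PDK4, the kinase that shuts down pyruvate dehydrogenase, had a log2 fold change of 3.82 ± 0.76 (SE, limma; adjusted p = 0.0465). DYNC1I1, a dynein chain that lies between them, stood at 0.358 to 1.61 FPKM over the 6 libraries and was not tested. Whether the levels of these neighbours are linked was not tested.

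SLC25A22, a glutamate carrier, stood between 0.556 and 1.80 FPKM and did not pass (limma log2 fold change 0.37 ± 0.24 SE with adjusted p = 0.396). Of the enzymes of the malate-aspartate and glycerol phosphate shuttles, 6 were tested, 4 with a positive and 2 with a negative log2 fold change. In limma 3 of the 6 had an unadjusted p under 0.05, beside 22.1% of all genes. The breeds did not overlap for 2, in opposite directions, beside 29.9% of all genes. Past the adjusted threshold stood 1, beside 3.05% of all genes. This was GPD1, the cytosolic glycerol-3-phosphate dehydrogenase, lower in Wannanhua (limma log2 fold change -1.90 ± 0.26 SE with adjusted p = 0.0223; 0.0119 to 0.0999 over 14 alternatives, lost without Wannanhua 1 or 2 or Yorkshire 2 or 3 at 0.0753, 0.0988, 0.0504 and 0.0999). MDH2 and MDH1, the mitochondrial and cytosolic malate dehydrogenases, had log2 fold changes of 0.45 ± 0.31 and 0.77 ± 0.39 (SE, limma; adjusted p = 0.433 and 0.290).

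The ATP-Mg/phosphate carriers adjust the adenine nucleotide pool of the matrix. Of 4 listed forms, 3 that respond to calcium were analysed here, and SLC25A41 was not. SLC25A25 (ENSSSCG00000005636) stood at 9.84, 19.9 and 67.1 FPKM in Wannanhua 1, 2 and 3 and at 81.4, 58.9 and 85.2 in Yorkshire 1, 2 and 3. Wannanhua 1 and 2 were below every Yorkshire library, while Wannanhua 3 lay above Yorkshire 2, so the breeds overlapped. The means were 32.3 ± 30.6 and 75.1 ± 14.2 FPKM (SD, n = 3), and the log2 fold change of -1.60 ± 0.60 (SE) did not pass (limma adjusted p = 0.181; 0.0189 to 0.390 over 14 alternatives). It was -2.32 without Wannanhua 3, which passed (limma adjusted p = 0.0189), and -1.0 without Wannanhua 1 (limma adjusted p = 0.368). Wannanhua 1 and 2 were also lowest in the fast-fibre means given above, whose part was not tested.

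SLC25A23 stood at 7.77, 6.52 and 6.39 FPKM in Wannanhua 1, 2 and 3 and at 4.24, 7.43 and 6.21 in Yorkshire 1, 2 and 3. The breeds overlapped (limma log2 fold change 0.21 ± 0.22 SE with adjusted p = 0.616). SLC25A24 stood at 4.07, 6.33 and 5.81 FPKM in Wannanhua 1, 2 and 3 and at 3.43, 10.5 and 11.4 in Yorkshire 1, 2 and 3, where Yorkshire 1 was the lowest library of all and the other two the highest (limma log2 fold change -0.44 ± 0.40 SE with adjusted p = 0.553). Without Yorkshire 1 this was -0.92 (limma adjusted p = 0.0777), and without Yorkshire 2 or 3 it was -0.23 or -0.17. Yorkshire 2 and 3 were also highest in the summed FPKM of 4 usable fibroblast markers of 5 listed (DCN, PDGFRA, COL1A2 and COL3A1), at 739 and 503. Yorkshire 1 stood at 304 and the Wannanhua libraries at 263 to 346, and none of the 4 was at 0. COL1A2 and COL3A1 were each highest in Yorkshire 2 and 3, while the other markers did not all follow. PDGFRA in Yorkshire 3, at 1.45 FPKM, was below every Wannanhua library, and DCN there, at 209, was below Wannanhua 1 at 212. The part of fibroblasts in SLC25A24 was not tested. SLC25A25 held 45.4%, 60.7% and 84.6% of the summed FPKM of the 3 forms in Wannanhua 1, 2 and 3, against 91.4%, 76.7% and 82.8% in Yorkshire 1, 2 and 3. The breeds overlapped, with means of 63.6 ± 19.8 and 83.6 ± 7.40 percent (SD, n = 3; exact two-sided permutation p = 0.3, adjusted p = 0.6). Their difference of -20.1 percentage points was -11.0 without Wannanhua 1 and -30.6 without Wannanhua 3. On scaled counts, which are not divided by length, the difference was -11.2 (exact two-sided permutation p = 0.3).

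**Figure D3:**
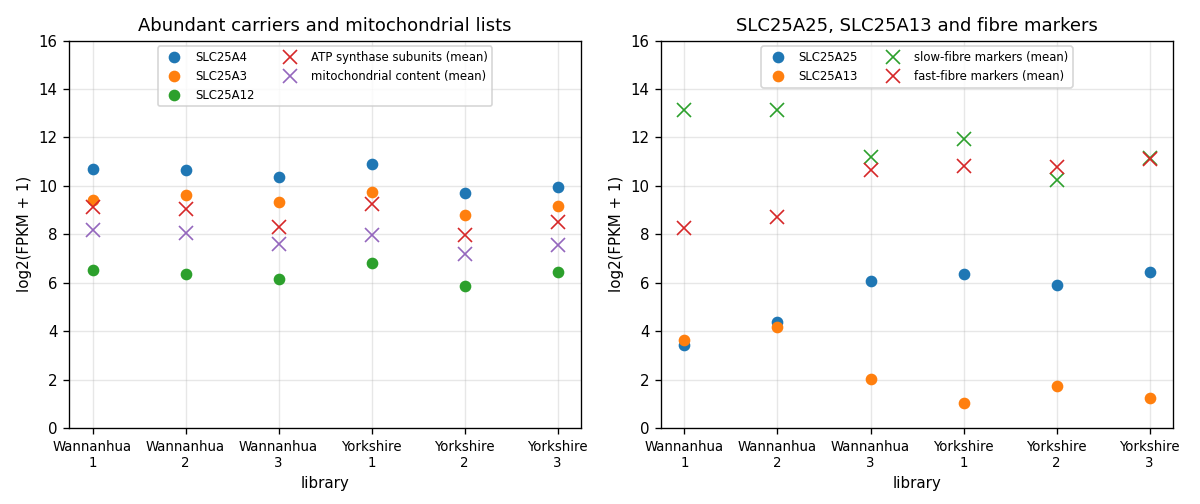
Levels by library as log2(FPKM + 1): SLC25A4, SLC25A3 and SLC25A12 beside the means of the ATP synthase and mitochondrial content lists (left), and SLC25A25 and SLC25A13 beside the means of the slow- and fast-fibre markers (right). On the left Yorkshire 2 stands lowest in the 3 carriers and both lists; on the right Wannanhua 3 lies with the Yorkshire libraries, SLC25A13 at 3.08 FPKM and SLC25A25 at 67.1 FPKM.

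Among carriers of cofactors and pyrimidine nucleotides, 6 were tested, 5 with a positive and 1 with a negative log2 fold change, and 2 passed, in opposite directions. SLC25A42 (ENSSSCG00000013927), the inner-membrane carrier that brings coenzyme A into the matrix, stood at 8.05, 6.89 and 8.55 FPKM in Wannanhua 1, 2 and 3 and at 4.28, 2.46 and 2.55 in Yorkshire 1, 2 and 3. The lowest Wannanhua library was above the highest Yorkshire one. The means were 7.83 ± 0.855 and 3.10 ± 1.02 FPKM (SD, n = 3), 2.53-fold higher in Wannanhua, with an estimated 110 to 381 reads per library. This was a log2 fold change of 1.13 ± 0.22 (SE, limma; adjusted p = 0.0437; 0.0275 to 0.161 over 14 alternatives). The call was lost after quantile normalization (0.0951), with no filter (0.0707), with the replicate block (0.0562) and without Wannanhua 1, 2 or 3 or Yorkshire 2 or 3 (limma adjusted p = 0.150, 0.128, 0.0711, 0.119 and 0.161).

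SLC25A17 (ENSSSCG00000000072) sits in the membrane of peroxisomes, where it exchanges coenzyme A and related cofactors for nucleotides. It stood at 2.88, 3.47 and 3.32 FPKM in Wannanhua 1, 2 and 3 and at 8.46, 8.53 and 6.95 in Yorkshire 1, 2 and 3. Every Yorkshire library was at least as high as 6.95, well apart from the Wannanhua ones. The means were 3.22 ± 0.305 and 7.98 ± 0.897 FPKM (SD, n = 3), 2.48-fold higher in Yorkshire, with an estimated 72 to 234 reads per library. This was a log2 fold change of -1.09 ± 0.17 (SE, limma; adjusted p = 0.0318; 0.0185 to 0.121 over 14 alternatives), the smallest adjusted p among the carriers. The call was lost with no filter (0.0544), with the replicate block (0.0554) and without Wannanhua 1 or 2 or Yorkshire 2 or 3 (limma adjusted p = 0.121, 0.117, 0.0915 and 0.103).

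The others of these did not pass. SLC25A16, a carrier linked to coenzyme A, stood between 2.83 and 3.04 FPKM in Wannanhua, and between 1.86 and 2.31 in Yorkshire, without overlap (limma log2 fold change 0.35 ± 0.16 SE with adjusted p = 0.251). SLC25A32, the folate or FAD carrier, had a log2 fold change of 0.38 ± 0.21, and SLC25A26, the S-adenosylmethionine carrier, of 0.14 ± 0.17 (SE, limma; adjusted p = 0.329 and 0.686).

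Uncoupling-protein-like carriers take their name from UCP1, which lets protons leak inward in brown fat; what SLC25A14 and SLC25A27 carry is less settled. SLC25A14 (ENSSSCG00000012660) stood at 1.13, 1.24 and 0.876 FPKM in Wannanhua 1, 2 and 3 and at 3.05, 2.54 and 3.10 in Yorkshire 1, 2 and 3. All Wannanhua libraries were below all Yorkshire ones. The means were 1.08 ± 0.186 and 2.90 ± 0.309 FPKM (SD, n = 3), 2.68-fold higher in Yorkshire, on an estimated 11 to 43 reads per library, the fewest of the called carriers. This was a log2 fold change of -0.91 ± 0.17 (SE, limma; adjusted p = 0.0422; 0.0337 to 0.161 over 13 alternatives). The call was lost on the scaled counts (0.0847), with no filter (0.0672), with the replicate block (0.0743) and without each of Wannanhua 1, 2 and 3 and Yorkshire 1, 2 and 3 (limma adjusted p = 0.141, 0.126, 0.0660, 0.0663, 0.101 and 0.161). SLC25A27 overlapped between breeds, at 1.77 to 4.73 FPKM (limma log2 fold change -0.09 ± 0.27 SE with adjusted p = 0.883).

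Of the family members listed under other symbols, 3 were tested, all with a positive log2 fold change, and 0 passed in limma or had an unadjusted p under 0.05. UCP3, the uncoupling protein of skeletal muscle, stood at 28.8, 22.6 and 153 FPKM in Wannanhua 1, 2 and 3 and at 26.8, 21.1 and 15.2 in Yorkshire 1, 2 and 3. Wannanhua 3 stood apart from the other 5 libraries, and the log2 fold change of 1.15 ± 0.66 (SE) did not pass (limma adjusted p = 0.352; 0.310 to 0.574 over 14 alternatives). It was 0.30 without Wannanhua 3. MTCH1, an outer-membrane protein of the family, stood at 59.5 ± 2.73 and 49.6 ± 12.2 FPKM (SD, n = 3; limma adjusted p = 0.454).

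**Figure D4:**
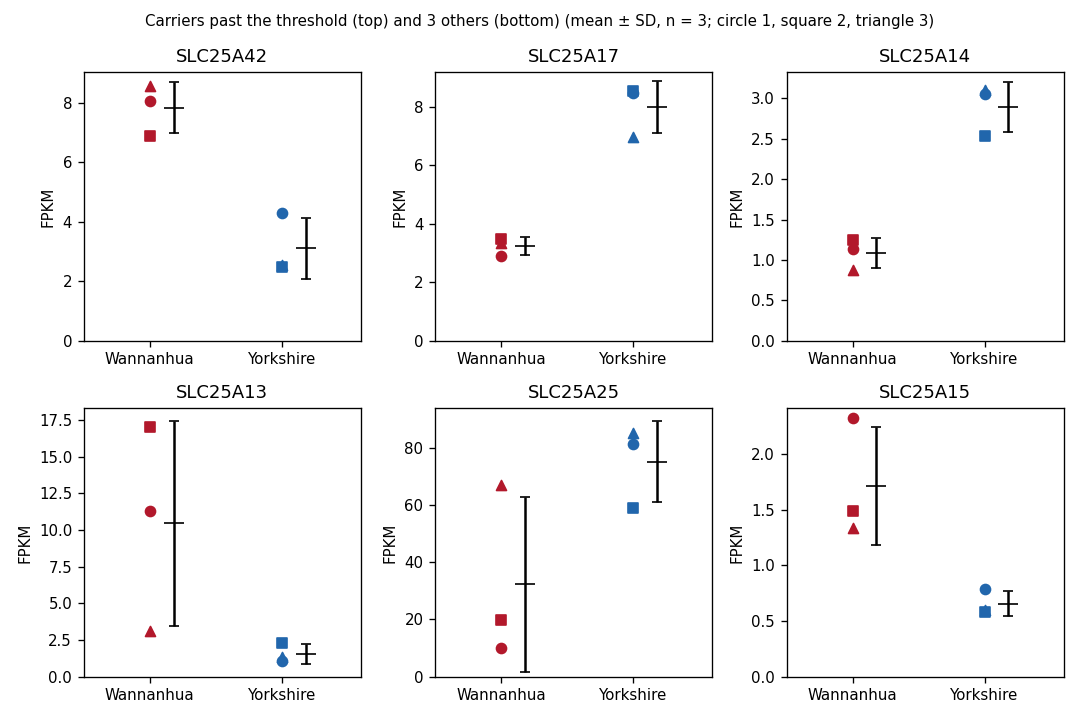
FPKM of 6 carriers in each library (red Wannanhua, blue Yorkshire; shapes are replicate numbers), with the mean and SD of 3 libraries as black bars; each vertical axis starts at 0. The top row shows SLC25A42, SLC25A17 and SLC25A14, which passed the limma threshold. The breeds do not overlap in these, nor in SLC25A13 and SLC25A15 of the bottom row. There Wannanhua 3 is the low SLC25A13 point at 3.08 FPKM and the high SLC25A25 point at 67.1 FPKM.

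Carriers of amino acids did not pass. SLC25A15 (ENSSSCG00000009373), the ornithine carrier that links the cytosol with the mitochondrial steps of ornithine metabolism, stood at 2.32, 1.49 and 1.33 FPKM in Wannanhua 1, 2 and 3 and at 0.783, 0.584 and 0.599 in Yorkshire 1, 2 and 3. The breeds did not overlap, with means of 1.71 ± 0.532 and 0.655 ± 0.111 FPKM (SD, n = 3; limma log2 fold change 0.70 ± 0.19 SE with adjusted p = 0.0995; 0.0634 to 0.259 over 13 alternatives). In the Sscrofa11.1 annotation 6 of the 29 carriers overlap another protein-coding gene, SLC25A15, SLC25A26, SLC25A32, SLC25A35, SLC25A40 and SLC25A43. Whole genes were compared from start to end, introns included, without regard to exons or strand. The libraries do not mark strand, and whether reads of the overlapping genes entered these carriers was not tested. SLC25A38, the glycine carrier of haem synthesis, and SLC25A44, the branched-chain amino acid carrier, had log2 fold changes of -0.30 ± 0.28 and 0.19 ± 0.17 (SE, limma; adjusted p = 0.565 and 0.567). SLC25A1, the citrate carrier that exports acetyl units for fat and sterol synthesis, averaged 14.1 ± 8.60 FPKM over Wannanhua libraries and 7.16 ± 2.12 over Yorkshire libraries (SD, n = 3). Wannanhua 2, at 23.9 FPKM, was far above the rest, and the log2 fold change of 0.77 ± 0.39 (SE) did not pass (limma adjusted p = 0.289), and was 0.34 without Wannanhua 2.

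The glutathione carriers varied little. SLC25A39 stood at 24.1, 20.6 and 27.2 FPKM in Wannanhua 1, 2 and 3 and at 28.8, 26.3 and 30.3 in Yorkshire 1, 2 and 3. Wannanhua 3 was above Yorkshire 2, so the breeds overlapped (limma log2 fold change -0.25 ± 0.17 SE with adjusted p = 0.435). Its paralogue SLC25A40 stood at 5.18, 5.41 and 5.65 FPKM in Wannanhua and at 5.35, 5.78 and 6.63 in Yorkshire (limma log2 fold change -0.11 ± 0.16 SE with adjusted p = 0.737). SLC25A39 held 81.4 ± 1.92 percent of their summed FPKM in Wannanhua and 82.8 ± 1.34 percent in Yorkshire (SD, n = 3; exact two-sided permutation p = 0.6, adjusted p = 0.6). SLC25A4 held 99.5 ± 0.139 percent of the summed SLC25A4 and SLC25A5 FPKM in Wannanhua and 99.4 ± 0.277 percent in Yorkshire (SD, n = 3; exact two-sided permutation p = 0.6, adjusted p = 0.6).

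**Figure D5:**
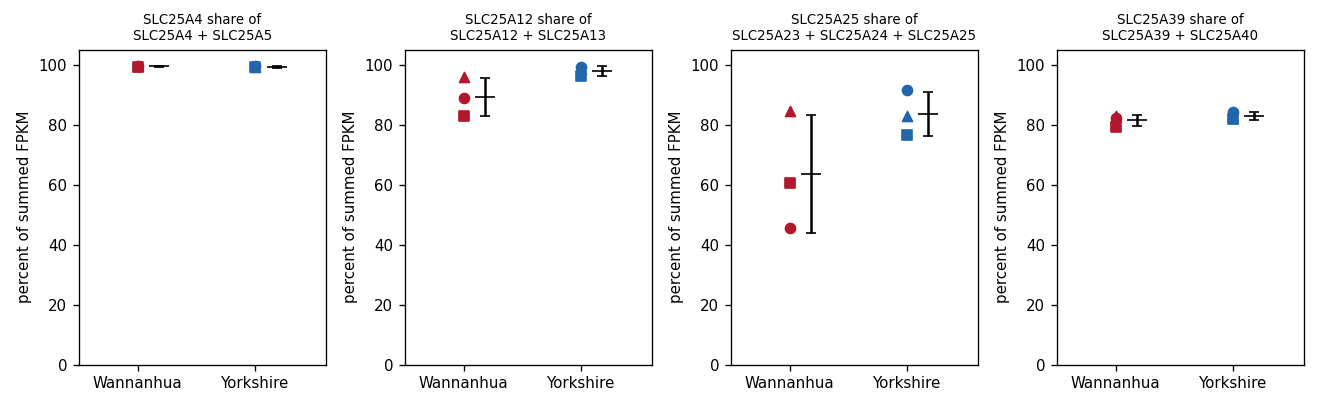
Share of the summed FPKM of close paralogues held by SLC25A4, SLC25A12, SLC25A25 and SLC25A39 in each library, in percent from 0, with mean and SD of 3 libraries. The shares of SLC25A4 and SLC25A39 lie together in both breeds, and the Wannanhua points of SLC25A12 and SLC25A25 spread downward to 82.9% and 45.4%.

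SLC25A46 (ENSSSCG00000014197), an outer-membrane member with a part in mitochondrial shape, stood at 30.8, 31.1 and 28.4 FPKM in Wannanhua 1, 2 and 3 and at 18.7, 22.4 and 22.3 in Yorkshire 1, 2 and 3. All Wannanhua libraries were above all Yorkshire ones, with means of 30.1 ± 1.48 and 21.2 ± 2.09 FPKM (SD, n = 3), yet the log2 fold change of 0.49 ± 0.16 (SE) did not pass (limma adjusted p = 0.134; 0.113 to 0.332 over 14 alternatives). SLC25A46 was above SLC25A39 in each Wannanhua library and below it in each Yorkshire library; this exchange of order was not tested. SLC25A43 and SLC25A45, carriers of less settled substrate, had log2 fold changes of -0.01 ± 0.18 and -0.09 ± 0.51 (SE, limma; adjusted p = 0.987 and 0.938). SLC25A45 ranged widely within Wannanhua, from 0.747 to 5.97 FPKM. SLC25A5 and SLC25A43 are neighbours in Sscrofa11.1, at mean levels of 7.60 and 6.87 FPKM.

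The 3 carriers too low to test were SLC25A35, at 0.214 to 0.909 FPKM, SLC25A47, a liver carrier, at 0.420 to 0.559 FPKM in Wannanhua and listed at 0 in Yorkshire 1 and 2 and at 0.758 in Yorkshire 3, and SLC25A48, listed at 0 in 4 libraries and at 0.0493 and 0.0515 FPKM in Wannanhua 1 and 2. At an estimated 0 to 18 reads per library, they were not tested for a breed difference. Of the 29, 2 averaged above 100 FPKM over the 6 libraries, and 21 averaged under 10.

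Partners bring the carriers to the inner membrane or share the mitochondrial membranes with them, and their calls can be read beside the 3.05% of all genes. Of 10 import genes tested, 6 lay above and 4 below 0 in log2 fold change (median 0.09), and 0 passed in limma, 4 with an unadjusted p under 0.05 and 5 without overlap between breeds. The 2 most abundant, TIMM8B, a small chaperone of the space between the membranes, and TOMM20, a receptor of the outer membrane, had log2 fold changes of -0.60 ± 0.25 and 0.42 ± 0.18 (SE, limma; adjusted p = 0.218 and 0.229). Of 16 other inner-membrane transporters tested, 11 lay above and 5 below 0 in log2 fold change (median 0.20), and 1 passed. An unadjusted p under 0.05 was reached by 9 of the 16, and 9 did not overlap between breeds, beside 22.1% and 29.9% of all genes. MCUB, the paralogue that dampens the mitochondrial calcium uniporter, stood at 0.956, 1.30 and 1.23 FPKM in Wannanhua 1, 2 and 3 and at 3.35, 2.70 and 3.74 in Yorkshire 1, 2 and 3. All Wannanhua libraries were below all Yorkshire ones (limma log2 fold change -0.98 ± 0.18 SE with adjusted p = 0.0412; 0.0304 to 0.156 over 13 alternatives). The call was lost with no filter (0.0671), with the replicate block (0.0670) and without each of Wannanhua 1, 2 and 3 and Yorkshire 1, 2 and 3 (limma adjusted p = 0.145, 0.126, 0.0553, 0.0652, 0.0866 and 0.156). MPC2, a subunit of the mitochondrial pyruvate carrier, had a log2 fold change of 0.51 ± 0.21 (SE, limma; adjusted p = 0.214). Of the outer-membrane channels, VDAC1 and VDAC3 had log2 fold changes of 0.03 ± 0.20 and 0.76 ± 0.17 (SE, limma; adjusted p = 0.936 and 0.0604).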

How the data were processed

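RNA of 6 muscle libraries was poly-A selected and sequenced in pairs with a kit that does not mark strand, per the labels' protocols. CASAVA 1.7, TopHat2 2.0.6 and build Sscrofa10.2 are named, with no role, in the submitters' processing notes; no source used here names the counter or annotation. The authors' deposited table gives FPKM and a column headed as counts. Those count values were not whole, so the deposited signal is treated as reads divided by a library factor. The most frequent value near 1 was taken as 1 read; 99.71% to 99.82% of values were then whole (within 0.01 of a read or a relative 1e-05), and depth is estimated from it. This step was not found from the smallest values in every library, so no count test was run, although the design planned one as an alternative.

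Gene symbols were matched by Ensembl identifier. Genes were kept at 1 FPKM or more in 3 or more libraries (11798), less 7 abundant genes (scaled count of 10000 or more) listed at 0 in some library. limma 3.58.1 in R 4.3.3 was fitted to log2(FPKM + 1) of these 11791 genes, with breed as the only term, trend and robust settings, and Benjamini-Hochberg adjustment; a fold change on this scale understates that of low genes. The fit was tested on simulated data. Values in every library are given for carriers past an adjusted p of 0.05, carriers without overlap and a log2 fold change of 0.58 or more in size, the 6 most abundant and the paralogues of the 4 shares; SLC25A1 and UCP3 were added after their values were seen. Of other lists the called and the 2 most abundant genes are named. The carriers, lists and tests were chosen with earlier results of these data known. Alternatives were another pseudocount (0.1), no filter or one at 5 FPKM, plain limma settings, quantile normalization, the replicate block, each library left out and the abundant genes kept; a fit to the scaled counts was added after seeing the data. The values of 1 carrier and of 1 other listed gene are not reported here, though both enter the counts. No sequences were used here.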

Additional observations from a re-analysis of the deposited data

How the results depend on the processing

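The 26 tested carriers kept their side of the threshold in 330 of 355 combinations of carrier and alternative, most of them of carriers that did not pass. A call was lost in 23 and gained in 2, SLC25A13 and SLC25A25 without Wannanhua 3, and no called direction reversed. All lost calls were of the 3 called carriers. SLC25A42 was called in 6 of 14 alternatives, SLC25A17 in 8 of 14 and SLC25A14 in 4 of 13. Signs changed in some alternative for 6 carriers that did not pass, SLC25A3, SLC25A5, SLC25A12, SLC25A27, SLC25A43 and SLC25A45. The count of 3 carriers past the threshold ran from 0 to 3 when 1 library was left out: 0 without Wannanhua 1, Wannanhua 2, Yorkshire 2 or Yorkshire 3 (with 6, 5, 7 and 6 carriers at an unadjusted limma p under 0.05). It was 0 with no filter, where limma called 69 genes in all, and 0 with the replicate block, where it called 205, each with 7 carriers at an unadjusted p under 0.05. Over all genes the count of 360 ran from 27 to 524 when 1 library was left out. Each of these fits has fewer libraries, fewer degrees of freedom or more genes. Among the fits with 1 library left out, 524 genes were called without Wannanhua 3 and 27 without Yorkshire 3. The cause of these shifts was not tested. Same-numbered libraries had correlations of 0.101, -0.0117 and 0.107 in their deviations from the breed means. Wannanhua 1 and 3 correlated best with the Yorkshire library of their own number, and Wannanhua 2 did not. With 3 libraries per breed these values cannot decide whether same-numbered libraries share more than a number. The difference in the SLC25A4 share, 0.11 percentage points, ran from -0.00856 to 0.262 when 1 library was left out, reversing without Yorkshire 3. The edgeR and DESeq2 alternatives were not run. Shares for SLC25A22, SLC25A28 and SLC25A33 were not computed. SLC25A22 had no usable partner, and SLC25A28 and SLC25A33 were not among the 29 carriers. With few reads for SLC25A14, counting error limits its precision.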
